A study of Mus musculus with 45 samples.

Results

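The epiblast part of a mouse egg cylinder was compared along its long axis at embryonic day E5.75, shortly before gastrulation. The comparison set sections 3, 4 and 5 of 1 untreated embryo against sections 6, 7 and 8. It used 6 of the 45 samples of the series, which also holds sections of embryos at E5.25 and E5.5. Each sample was tissue cut out of a frozen section with a laser, and its RNA was sequenced with Smart-seq2, a method for very small amounts of RNA. All 6 samples share stage, embryo and handling, and the labels give neither genotype nor strain, so position along the embryo is the only labelled difference. Adjacent sections of 1 embryo served as the replicates, so every p-value below compares positions in that embryo and not embryos. Libraries of the visceral endoderm (VE), the cell layer around the embryo, were cut separately from sections 6 and 7 and were kept out. FPKM counts sequenced fragments relative to transcript length and library size, and 8470 of 13618 listed genes reached a value of 1 in 2 or more of the 6 sections and are described here.

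At this stage the epiblast is a cup of pluripotent epithelium that will give rise to the body of the embryo. The extraembryonic ectoderm (ExE) borders it on its proximal side and secretes BMP4, a ligand that acts through receptors and SMAD1 and SMAD5 to switch on the Id genes and Msx genes in the nearby epiblast. NODAL, made in the epiblast itself and matured by the convertases FURIN and PCSK6 from the ExE, keeps up pluripotency and sets up the streak. The distal and anterior VE secretes antagonists of both pathways on the opposite side. A comparison of distal with proximal epiblast therefore asks whether the graded signals of the egg cylinder left a mark on its transcripts.

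The labels number the sections and do not name a distal or a proximal end, so the markers were read first. Pou5f1 (OCT4, the core pluripotency factor) was at 6.67, 7.30 and 7.35 in sections 3, 4 and 5, as log2(FPKM + 1). It was at 7.53, 6.95 and 7.0 in sections 6, 7 and 8, and at 3.70, 0 and 2.66 in sections 10, 11 and 12. Fgf5, a marker of post-implantation epiblast, lay between 2.60 and 3.68 in sections 3 to 8 and between 0 and 0.23 in sections 10 to 12. Both genes thus place all 6 sections in the epiblast.

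Markers of trophoblast gave the other border. Cdx2, a trophoblast transcription factor, was listed at 0 in sections 3 to 7, was at 0.55 in section 8 and was between 4.32 and 4.49 in sections 10 to 12. Elf5, which maintains trophoblast stem cells, was at 1.52 in section 8 and at no more than 0.18 in sections 3 to 7, against 4.42 to 5.39 in sections 10 to 12. The 15 ExE markers summed to an FPKM of 2.18 to 9.05 in sections 3 to 5, 9.06 to 11.4 in sections 6 to 8 and 322.0 to 454.0 in sections 10 to 12. Sections 6 to 8 were therefore the epiblast sections next in number to the ExE, with a section 8 that held a trace of Elf5. On the other side, Lhx1, a marker of the anterior VE, was at 5.8 in section 1 and at no more than 0.69 in sections 3 to 8. It was also at 5.26 and 2.14 in the separately cut VE, and the anterior VE markers Cer1 and Hhex were listed at 0 in section 1. Section 1 held only 3211 genes at an FPKM of 1 or more, with 52.8% of summed FPKM in the ribosomal precursor Rn45s. A 0 there therefore says little. The 15 listed distal and anterior VE markers summed to 118.4 in section 1, 5.93 to 52.3 in sections 3 to 5 and 27.6 to 39.8 in sections 6 to 8. In the VE libraries they summed to 51.6 and 17.9. These genes were not used to name the section 1 end. Sections 6 to 8 are called proximal and sections 3 to 5 distal below from the ExE markers alone.

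**Figure D1:**
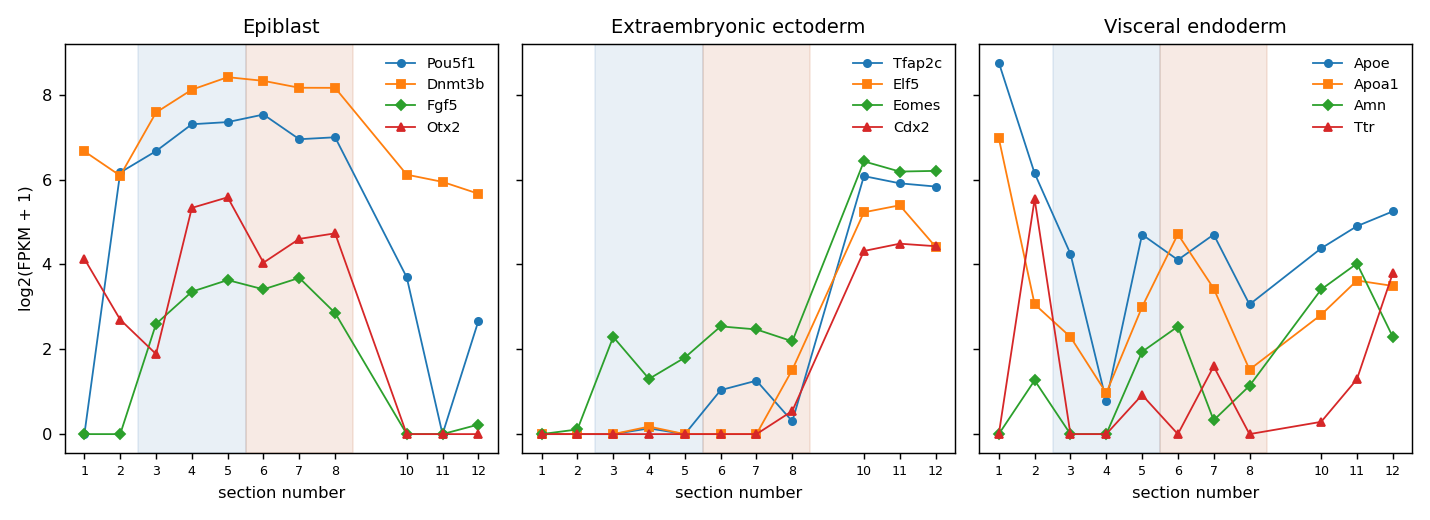
Levels on the log2(FPKM + 1) scale (y axis) of 4 markers each of epiblast, ExE and VE in sections 1 to 12 of the E5.75 embryo (x axis); blue shading marks sections 3 to 5 and orange shading sections 6 to 8, each point is 1 section, and sections 9 and 13 have no value here. Pou5f1 and Dnmt3b stay high through sections 3 to 8, Cdx2 is listed at 0 in sections 3 to 7, and Apoe and Apoa1 vary from section to section in both groups.

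The VE was the other tissue that could lie in these cuts. Its 24 listed markers summed to an FPKM of 51.9 to 152.0 in sections 3 to 5 and 100.1 to 253.0 in sections 6 to 8, against 1030.0 and 2940.0 in the VE libraries. The VE libraries of sections 6 and 7 listed 14 and 10 of the 24 at 0. Epiblast markers summed to 478.6 and 306.7 in them, so they are not a pure VE reference. Of the VE transcription factors, Gata6 and Sox17 were listed at 0 in all 6 sections, and Foxa2 was at 0 in section 4 and between 0.34 and 1.66 in the other 5. Car4, a carbonic anhydrase on the same list, was at 5.33 to 7.01 in all 6 and at 0 and 6.41 in the VE libraries. Ttr, a VE carrier protein, was at 0.92 in section 5, 1.60 in section 7 and 0 in the other 4. Markers of maternal decidua summed to 2.85 to 16.2 in sections 3 to 5 and 2.64 to 9.28 in sections 6 to 8, and the 2 listed blood markers were at 0 in all 6. The 14 markers of ectoplacental cone and trophoblast summed to 30.8 to 43.2 and to 29.7 to 431.0, where the highest value was section 6. Their part in the results below was not tested.

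Sections 3 and 4 stood apart from the other 4 in quality. They held 5303 and 5576 genes at an FPKM of 1 or more, and sections 5 to 8 held 6923 to 7689. Of the tested genes, 2122 and 1785 were listed at 0 in these 2 sections, whereas sections 5 to 8 had 345 to 871 such genes. The Spearman correlation across the 8470 genes was 0.55 between sections 3 and 4, 0.573 to 0.62 between either of them and the other 4, and 0.681 to 0.769 among those 4. The ribosomal precursor Rn45s took 3.89% to 9.51% of the summed FPKM in sections 3 to 7 and 16.2% in section 8. Read depth is unknown because the values are not counts.

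**Figure D2:**
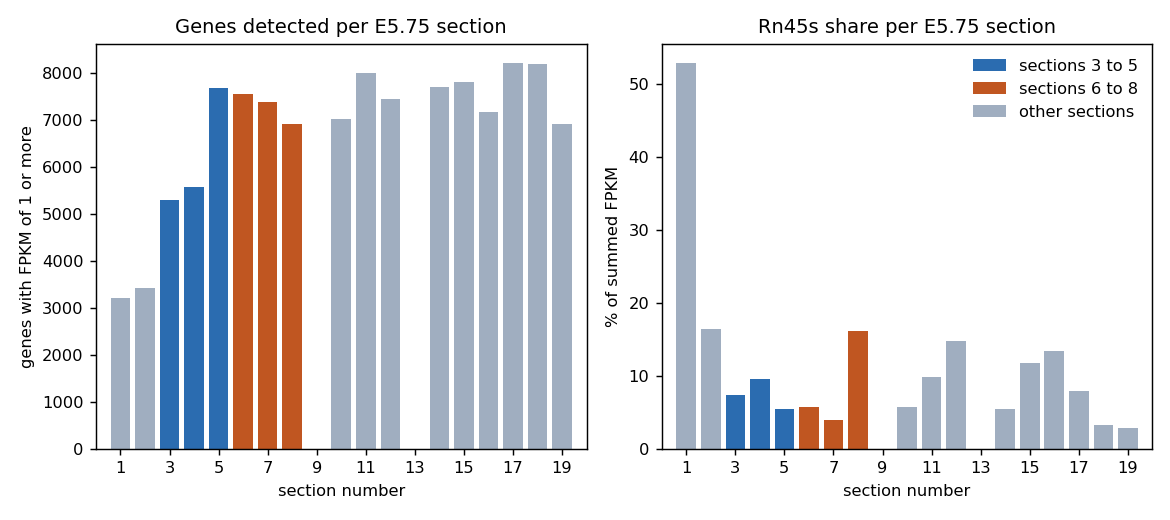
Number of genes with an FPKM of 1 or more (left) and the share of summed FPKM taken by Rn45s in % (right) for each E5.75 section (x axis); each bar is 1 library. Sections 3 and 4, with 5303 and 5576 genes, lie below the 6923 to 7689 of sections 5 to 8, and section 8 has the highest Rn45s share of the 6 at 16.2%.

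No gene differed between distal and proximal epiblast at an adjusted p under 0.05. The count was 0 of 8470 (0.0%) by limma with Benjamini-Hochberg adjustment, and the smallest adjusted p was 0.885. At an unadjusted p under 0.05 there were 412 genes (4.86%), close to the 5% that such a threshold allows when nothing differs. Of them, 320 (3.78%) were higher in sections 6 to 8 and 92 (1.09%) were higher in sections 3 to 5. Genes with a mean FPKM of at least 5, an unadjusted p under 0.05 and groups that did not overlap were ranked, with unnamed gene models left out. The largest difference among them was that of the BMP target Id1. Id1 was the only gene that passed when the 6 sections were fitted as a line.

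The lean toward the proximal side was smaller among genes that all sections detected, and the part of sections 3 and 4 in it was not tested. The difference was above 0 for 5293 genes (62.5%), and its median was 0.22 on the log2(FPKM + 1) scale. Among the 3261 genes that reached an FPKM of 1 in all 6 sections the median was 0.04. In 551 genes (6.51%) every proximal section was above every distal one, and in 225 (2.66%) the reverse held, 776 in all (9.16%). Among the 3261 widely detected genes these counts were 152 and 146. When nothing differs and no values tie, 3 against 3 sections separate fully, in either direction, with a probability of 0.1. The 9.16% is near that level. Without sections 3 and 4, which leaves section 5 against sections 6 to 8, 71 genes were higher and 106 lower in the proximal sections at an unadjusted p under 0.05. After quantile normalization the unadjusted counts were 227 and 186, and the median was -0.01. A change in the number of cells captured and a change in RNA per cell cannot be told apart in such bulk samples.

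**Figure D3:**
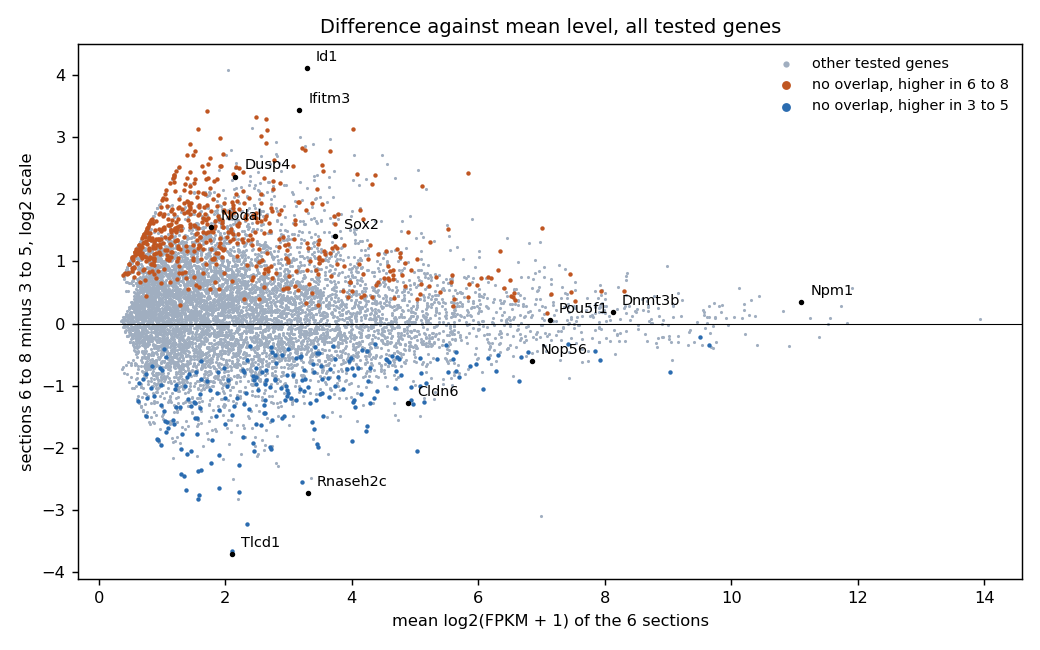
Difference between the mean of sections 6 to 8 and the mean of sections 3 to 5 (y axis, log2 scale) against the mean of the 6 sections (x axis, log2(FPKM + 1)) for the 8470 tested genes; orange and blue points are the 551 and 225 genes whose groups do not overlap, and black points are named. Differences spread widely below a mean of about 4 and narrow for abundant genes such as Pou5f1, Dnmt3b and Npm1, and Id1 at 4.11 lies at the upper edge.

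The precision differed by level of expression. The 95% interval of the difference had a median half-width of 1.60 log2 units, and the narrowest was 0.44. For 233 genes the whole interval lay within 1 log2 unit of 0, so a change of more than 2-fold on this scale lies outside it. The median standard deviation across 3 sections was 0.88 in the distal and 0.62 in the proximal group.

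Id1 encodes an inhibitor of bHLH transcription factors and is a direct target of BMP signalling in many cells. It lies at chr2:152736251-152737410 on the plus strand (mm10). It was at 0.44, 0.44 and 2.84 in sections 3, 4 and 5 and at 4.45, 5.52 and 6.07 in sections 6, 7 and 8. The values were low in the first pair, intermediate in section 5 and higher at each further section, and the groups did not overlap. The means were 1.24 ± 1.39 and 5.35 ± 0.82 (SD, n = 3 sections each). The difference was 4.11 ± 0.76 log2 units (SE), with a 95% interval of 2.5 to 5.8. The limma p was 0.000118 before and 0.885 after adjustment over the 8470 genes.

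As a line over sections 3 to 8, Id1 had a fitted change of 6.43 ± 0.87 log2 units (SE) from section 3 to section 8, with a limma adjusted p of 0.0488. Over all the alternatives its adjusted p ran from 0.0488 to 1.0, while the difference was above 0 in the 21 of 22 that could test it and ran from 2.51 to 6.43. The lowest of these came from leaving out sections 3 and 4, and with the number of genes detected per section in the fit the difference was 3.17. Id1 was listed at 0 in sections 1 and 2, which held only 3211 and 3424 genes at an FPKM of 1 or more. In the ExE sections 10, 11 and 12 Id1 was at 1.54, 2.58 and 2.41. In sections 14 to 19 it was between 2.1 and 5.03, and section 15, the highest of these, lay above section 6. In the VE libraries it was at 0 and 3.69. Of the E5.75 sections with a value, section 8 had the highest Id1, and section 9, its neighbour, has no value here.

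The other members of the BMP pathway were read by role. Of 22 genes on the list, 12 passed the filter. None of the 12 passed the test, 2 (Id1 and Msx2) had an unadjusted p under 0.05 (4.86% of all genes) and 10 had a difference above 0 (62.5% of all genes). The median of the 12 was 0.63, against 0.22 for all tested genes, and Id1 and Msx2 were the 2 whose groups did not overlap (9.16% of all genes). Msx2, Bmp2 and Bmpr2 reached an FPKM of 1 in proximal sections only. They thus entered the 12 through the side where they were high, and the counts and the median are no support for a proximal rise.

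Among the ligands, Bmp4 did not reach the filter. It was at 0.90, 0 and 0.78 in the distal and 0.73, 1.37 and 0 in the proximal sections, and at 6.85, 5.96 and 5.02 in sections 10, 11 and 12. Bmp8b, an ExE ligand, was at no more than 0.29 in sections 3 to 8 and at 3.17 in section 10. Bmp2, which the VE makes, was listed at 0 in the distal sections and was at 1.08, 0 and 2.36 in the proximal ones. Bmp4 and Bmp8b thus had their high values beyond section 8, whereas Bmp2 was at 0.67, 0 and 0 in sections 10 to 12.

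The receptors and SMADs were low and their groups overlapped. The type I receptor Bmpr1a was at 1.57, 0.90 and 3.41 in the distal and 1.51, 2.59 and 2.78 in the proximal sections. The type II receptor Bmpr2 was at 0, 0 and 0.41 and at 0.08, 1.72 and 2.15. Smad1 and Smad5, which carry the signal to the nucleus, had differences of 0.51 ± 0.81 and 0.30 ± 0.89 log2 units (SE). These errors exceed the differences.

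The targets did not share 1 pattern. Msx2, a homeobox target of BMP, was listed at 0 in all 3 distal sections and was at 0.38, 2.0 and 1.84 in the proximal ones (limma p = 0.0407 before adjustment, 0.885 after). Id2 was at 0, 0 and 2.87 and then at 3.19, 3.98 and 1.41, so its groups overlapped, and it was far higher in the ExE at 6.95 to 7.78. Id3 was at 3.96, 4.30 and 5.76 and then at 5.71, 5.60 and 4.94, and between 0 and 2.02 in the ExE. Id3 thus had its highest value in section 5 and not next to the ExE, with a difference of 0.74 ± 0.53 (SE). The inhibitors Smad6 and Bambi did not reach the filter, and Smad7 was at 3.0, 0.24 and 1.15 against 2.09, 1.88 and 1.54.

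**Figure D4:**
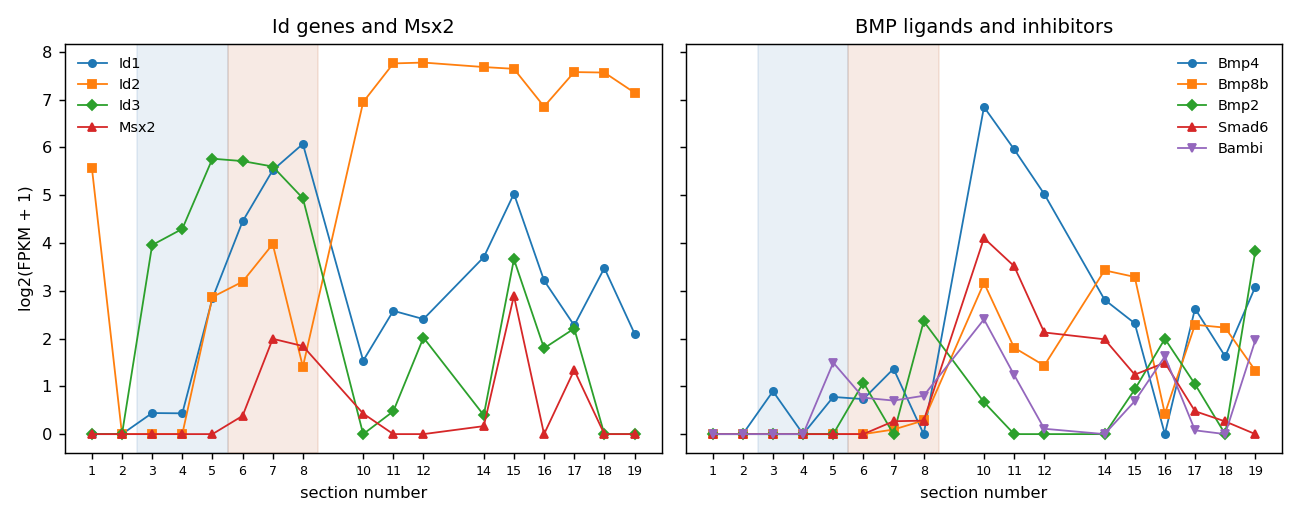
Levels on the log2(FPKM + 1) scale (y axis) of 3 Id genes and Msx2 (left) and of 3 BMP ligands with the inhibitors Smad6 and Bambi (right) in the E5.75 sections (x axis); blue and orange shading mark sections 3 to 5 and 6 to 8, and each point is 1 section. Id1 goes from 0.44 in section 4 to 6.07 in section 8, Id3 is highest in section 5, and Bmp4 is at no more than 1.37 before section 10.

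In the ranking that Id1 led, the genes with the next largest differences toward the proximal side mostly shared a gap in sections 3 and 4. Ifitm3, an interferon-induced membrane protein known from germ cell precursors, was listed at 0 in both, then at 4.36 in section 5 and at 4.50, 5.09 and 5.08 in sections 6 to 8. Its difference was 3.44 ± 0.99 (SE), and 0.53 without sections 3 and 4. Memo1, Pop7 and Tsc22d1 had the same layout, at no more than 0.08 in sections 3 and 4 and at 2.98 to 3.5 in section 5. Deb1, Chchd1 and Bloc1s2a also had section 5 much nearer to the proximal values than to at least 1 distal section. Reads of Bloc1s2a and of the Ifitm family may be shared with close copies, so their split is uncertain.

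A pair of the 10 had section 5 on the distal side. Mettl10, a lysine methyltransferase, was at 1.97, 0.65 and 0.70 in the distal and 4.78, 4.41 and 3.47 in the proximal sections. Its difference was 3.11 ± 0.71 (SE), and 3.52 without sections 3 and 4. Bmyc, a Myc relative, was listed at 0 in sections 3, 4 and 5 and was at 4.04, 2.64 and 3.58 in sections 6, 7 and 8. Of 8470 tested genes, 12 including Bmyc were listed at 0 in every distal section and reached an FPKM of 1 in every proximal one. The reverse held in 2. Sections 3 and 4 listed 2122 and 1785 tested genes at 0, against 345 to 871 in sections 5 to 8, and the part of this in the 2 counts was not tested. None of these genes, nor Mettl10, passed the test.

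On the distal side Tlcd1, a membrane lipid regulator, had the largest difference that the naming rule admitted. It was at 5.94, 3.68 and 2.29 in sections 3, 4 and 5 and at 0, 0.76 and 0 in sections 6, 7 and 8, and the difference was -3.72 ± 0.93 (SE, limma p = 0.00146 before and 0.885 after adjustment). Rnaseh2c, a subunit of the enzyme that removes ribonucleotides from DNA, was at 5.18, 5.05 and 3.77 and then at 2.04, 0.87 and 2.90. Zfp511, a zinc finger protein, was at 2.80, 4.19 and 2.70 and then at 0.73, 1.03 and 0. The naming rule admitted only genes whose groups did not overlap, so this holds for all 3 by selection. The part of the lower detection in sections 3 and 4 was not tested. The other 7 were Zfp646, Snx1, Mrpl39, Gngt2, Hexa, Rnf5 and Fam50a, with differences from -2.72 to -1.94. None of the 10 passed the test.

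A stepwise course over all 6 sections was rare. The value was higher at each step from section 3 to section 8 in 23 of the 8470 tested genes and lower at each step in 9. Rap1b, a small GTPase of cell adhesion, was at 0, 0.52, 1.43, 2.64, 3.34 and 3.56. Zfand6, a ubiquitin-binding zinc finger protein, went from 0.77 in section 3 to 5.60 in section 8. On the other side Zc3h7a, an RNA-binding protein, was at 3.67, 3.54, 1.75, 0.22, 0.15 and 0.12, and Itga3, an integrin subunit, went from 3.27 to 1.24. These 4 were picked after their values were seen, and none passed the test.

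Across the 30 gene lists, 264 of 414 genes could be tested and 0 passed, as in the 0.0% of all genes. Of the 19 tested epiblast markers, 13 had a difference above 0, near the 62.5% of all genes. Their median was 0.12, against 0.22 for all tested genes. Pou5f1 had a difference of 0.05 with a 95% interval of -0.69 to 0.79. The interval was -0.47 to 0.83 for Dnmt3b, the de novo methyltransferase of the epiblast, -0.76 to 1.02 for Nanog and -1.18 to 1.42 for Fgf5. All 4 intervals include 0, and their upper ends run from 0.79 to 1.42 log2 units.

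Sox2, a pluripotency factor also used by neural ectoderm, was the 1 of 19 epiblast markers with an unadjusted p under 0.05, a share near the 4.86% of all genes. It was at 1.61, 3.52 and 3.94 in the distal and 4.43, 4.52 and 4.35 in the proximal sections, and the difference was 1.41 ± 0.65 (SE). The low value was section 3, without which the difference was 0.70. Otx2, a head and anterior epiblast gene, was also low in section 3 alone, at 1.89 against 4.04 to 5.58 in the other 5. The 15 tested genes of formative and primed pluripotency had a median of 0.11 and the 5 of naive pluripotency 0.30. Dppa5a, the most abundant naive gene named here, was at 7.40, 7.93 and 8.43 and then at 8.64, 8.67 and 8.22.

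Genes of the primitive streak were mostly low on both sides. T (Brachyury) was listed at 0 in 5 sections and was at 0.81 in section 6. Eomes was at 2.29, 1.30 and 1.80 and then at 2.54, 2.47 and 2.19, against 6.19 to 6.43 in sections 10 to 12. Fgf8 was at 4.45 in section 3 and at no more than 1.92 in the other 5. Of the 15 listed streak genes 5 passed the filter, and their summed FPKM was 1.47 to 32.7 in the distal and 13.2 to 17.5 in the proximal sections, with the highest value in section 3.

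Nodal itself was at 3.01, 0 and 0 in the distal and 2.71, 1.80 and 3.15 in the proximal sections, and its groups overlapped through section 3. Its co-receptor gene Tdgf1 (Cripto) was at 4.12, 2.87 and 5.53 and then at 4.41, 5.47 and 5.18. The convertase gene Furin was at no more than 0.19 in the distal and at 1.51, 1.17 and 0.61 in the proximal sections, and at 1.19 to 2.04 in the ExE. Pcsk6 was at 2.24, 0 and 1.85 in the distal and 0.52, 0.94 and 0 in the proximal sections, a difference of -0.87 ± 0.73 (SE). Smad4, the common SMAD, was at 0.41, 1.03 and 2.65 and then at 3.62, 2.15 and 3.77, with a limma p of 0.0469 before and 0.885 after adjustment. The type II receptor gene Acvr2b was the most abundant receptor of the list per length, at 4.20 to 5.45 in all 6 sections. Of the 11 tested genes of the pathway 8 had a difference above 0 (62.5% of all genes). Their median was 0.68, against 0.22 for all tested genes. Furin was among the 11 through values of proximal sections alone, so the count and the median are no support for a proximal rise. The antagonists gave little to read, since Cer1 was at 1.0 in section 3 and 0 in the other 5.

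In the FGF pathway the median of 12 tested genes was 0.08, and Dusp4, a phosphatase that ERK signalling induces, stood out among them. It was at 0, 1.10 and 1.83 in the distal and 3.19, 3.18 and 3.65 in the proximal sections, with a difference of 2.36 ± 0.76 (SE, limma p = 0.00831 before and 0.885 after adjustment). Without sections 3 and 4 the difference was 1.51. Of the 12 genes, 7 had a difference above 0, against 62.5% of all genes. Etv4 of this list was at 0.68, 1.70 and 1.87 and then at 2.76, 1.16 and 3.54, so its groups overlapped. Its difference was 1.07 ± 0.84 (SE). Dusp6 and Spry4, which ERK signalling also induces, did not share the layout of Dusp4. Dusp6 was at 3.90, 3.92 and 4.61 and then at 3.86, 3.38 and 4.57, and Spry4 was between 2.47 and 3.19 in all 6. Fgf4, an epiblast ligand, was at 3.37, 4.66 and 4.20 and then at 3.60, 3.44 and 2.30, a difference of -0.97 ± 0.61 (SE).

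The Wnt list had a median of 0.23 over 11 tested genes, near that of all genes. The receptor gene Fzd7 was at 2.67, 2.69 and 2.76 and then at 2.85, 3.04 and 3.92, so it was higher at each step, with a difference of 0.57 ± 0.62 (SE). Apc was at 6.05 in section 8 and between 1.10 and 2.89 in the other 5. Axin2, a feedback target, was at 0, 0.64 and 1.37 and then at 0.26, 0 and 2.14. No member of this list had an unadjusted p under 0.05.

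Imprinted genes had a difference above 0 in 10 of 10 tested members, against 62.5% of all genes. The median was 0.83, and 3 of the 10 had an unadjusted p under 0.05, against 4.86% of all genes. H19, a maternally expressed noncoding RNA, was at 0, 0.14 and 1.33 in the distal and 2.87, 1.68 and 2.77 in the proximal sections. It was at 6.34 to 6.73 in sections 10 to 12 and at 5.54 and 9.08 in the VE libraries, whose marker sums are given above. Grb10, a growth inhibitor, was at 0.16, 0.47 and 2.02 and then at 3.56, 3.08 and 1.91, and at 3.92 to 4.09 in sections 10 to 12. Nnat was at 0.35, 0.62 and 3.08 and then at 3.0, 2.87 and 4.88, and was listed at 0 in sections 10 to 12. Nnat lies within Blcap and Smart-seq2 does not keep the strand, so some of the reads given to Nnat may come from Blcap. Without sections 3 and 4 the differences of H19, Grb10 and Nnat were 1.11, 0.83 and 0.50.

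Lists of housekeeping pathways were read in the same way. The 15 tested cytosolic ribosomal proteins had a median of -0.10, the 16 glycolysis genes -0.03 and the 20 cell cycle genes 0.32. Pkm, the last enzyme of glycolysis, was between 7.40 and 8.09 in all 6 sections. Ldhb, a lactate dehydrogenase subunit, was at 4.50, 4.33 and 4.34 and then at 3.5, 3.07 and 3.43, so its groups did not overlap, and its difference was -1.06 ± 0.51 (SE, limma p = 0.0575 before adjustment). The nuclear-encoded respiratory chain had a median of 0.42 over 18 genes. Ndufb3, a subunit of complex I, was at 3.08, 4.11 and 6.67 and then at 7.23, 6.94 and 6.96, and its difference of 2.43 became 0.38 without sections 3 and 4.

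Epithelial genes and epigenetic regulators gave single members to note. Of the 15 tested epithelial genes 12 had a difference above 0 (62.5% of all genes). Their median was 0.75, against 0.22 for all tested genes. Cldn4 was among the 15 through values of proximal sections alone, so the count and the median are no support for a proximal rise. Cldn6, a tight junction claudin, was at 4.36, 6.52 and 5.70 in the distal and 3.92, 4.64 and 4.19 in the proximal sections, and was the 1 list member with an unadjusted p under 0.05 that was higher distally (limma p = 0.0396). Section 3 lay below section 7, so the groups overlapped. Epcam, an epithelial adhesion molecule, was at 4.18, 5.23 and 5.46 and then at 5.76, 5.74 and 5.61. Dnmt3l, a cofactor of the de novo methyltransferases, was at 1.79, 3.67 and 4.26 and then at 4.50, 4.54 and 4.49, whereas Dnmt3a and Tet1 had differences of 0.09 and -0.01. Mdm2, a p53 target that limits p53, was at 1.59, 0 and 2.49 and then at 3.71, 3.49 and 2.94, while the 12 tested p53 targets and apoptosis genes had a median of 0.04.

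**Figure D5:**
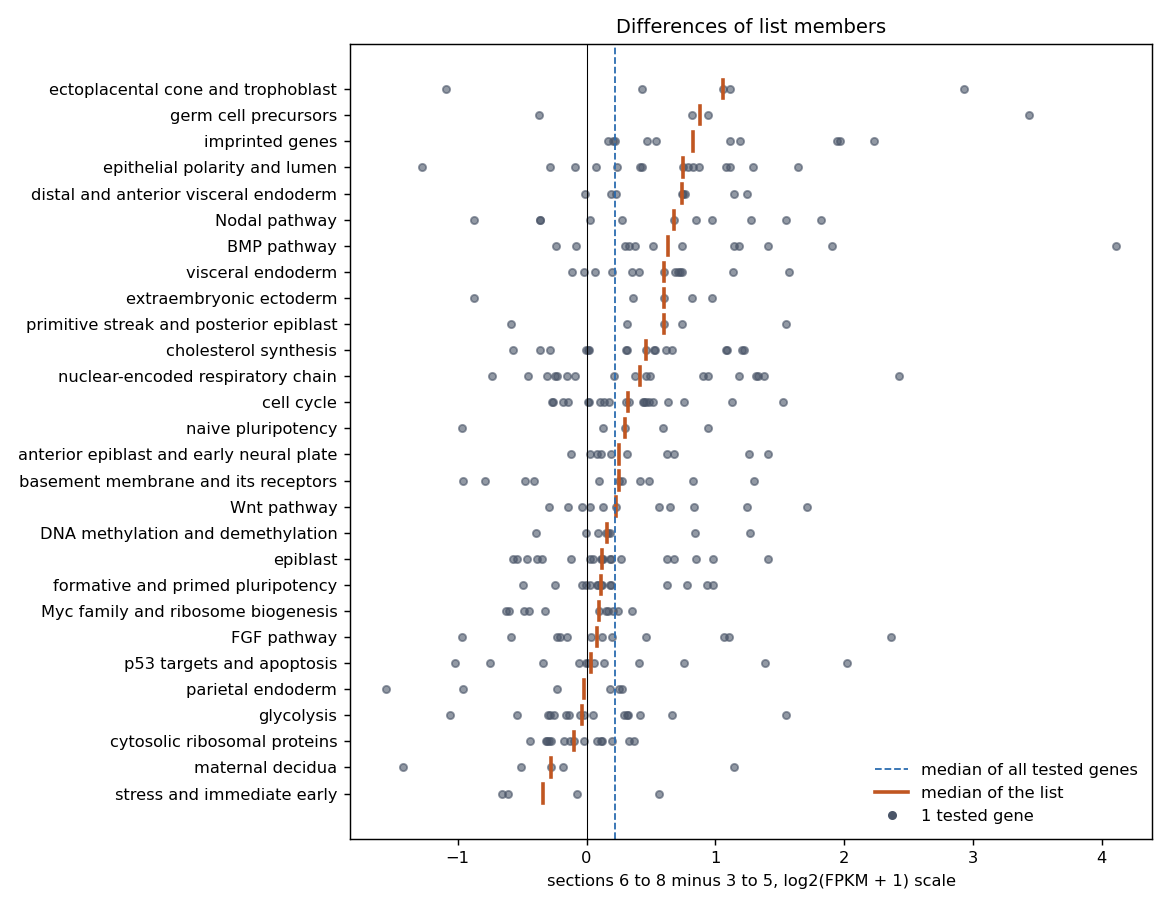
Difference between sections 6 to 8 and sections 3 to 5 (x axis, log2(FPKM + 1) scale) for the tested members of the 28 lists with tested members (y axis); each point is 1 gene, orange bars are list medians, and the dashed line is the median of all tested genes at 0.22. No gene shown passed the test, and Id1 of the BMP pathway lies farthest to the right at 4.11.

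Lists of neighbouring tissues lay on both sides of the median of all genes. Of the ExE list 5 of 15 genes passed the filter, with a median of 0.60. Tfap2c and Furin were among the 5 through values of proximal sections alone. Tfap2c, a trophoblast and germ cell factor, was at 0, 0.13 and 0 and then at 1.04, 1.26 and 0.30, against 5.84 to 6.08 in sections 10 to 12. Of the VE list 13 passed the filter, with a median of 0.60. Apoa1 was at 2.29, 0.97 and 3.0 and then at 4.71, 3.43 and 1.52, against 2.23 and 7.01 in the VE libraries. The 8 tested genes of the distal and anterior VE had a median of 0.74, and Hhex and Bmp2 were among the 8 through values of proximal sections alone. The 5 maternal decidua genes had a median of -0.27 and the parietal endoderm genes -0.02, and Sparc was between 3.08 and 3.89 in all 6 sections.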

How the data were processed

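The deposited values of the E5.75 sections are FPKM on a log2 scale, taken to be log2(FPKM + 1), since their minimum is 0. Build mm10 and the programs Cufflinks 2.0.2 and TopHat2 2.0.4 are named, without their roles, in the submitters' processing notes. The normalization is not given in the sources used here, and no column of values was left unused (0). Genes that reached an FPKM of 1 in 2 or more of the 6 sections entered a 2-sided limma fit (version 3.58.1 in R 4.3.3, trended eBayes; p-values adjusted after Benjamini and Hochberg, threshold 0.05) of the mean of sections 6 to 8 minus that of sections 3 to 5. No count test was possible. An exact permutation test of 3 against 3 cannot go below 0.1. The fit was also run on simulated data with independent normal noise. These data had neither the lower detection of sections 3 and 4 nor a dependence between adjacent sections, so they cannot test the fit under those conditions.

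The sections compared, the 30 gene lists and the rules were chosen with earlier results of these data known. Genes were named as the 10 largest differences per direction among those with an adjusted p under 0.05 and a mean FPKM of at least 5. Open places were filled with genes at an unadjusted p under 0.05 whose groups did not overlap, and none of the 20 passed. The rule added up to 4 members per list with the smallest p and 19 identity markers. Locations are from GENCODE vM21. Alternatives varied the pseudocount (0.1, 5), filter, scaling, fit and sections used. Lefty1 has no value here.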

Additional observations from a re-analysis of the deposited data

How the results depend on the processing

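The count of genes at an adjusted p under 0.05 was 0 in 20 of 22 alternatives, including each left-out section (0 to 0). It was 1 for a line over sections 3 to 8 (Id1, 6.43 ± 0.87 (SE), adjusted p 0.0488) and 2 with the spread taken from all E5.75 sections: Rab34 at 2.71 ± 0.40, adjusted p 0.016, and Ggt7 at -2.68 ± 0.42, adjusted p 0.0179 (limma). The 2-gene result takes the spread of ExE and distal-most sections as that of the epiblast. Of 119 named genes tested, 80 kept the sign of their difference in every alternative. The unadjusted counts moved most: 818 higher and 160 lower in the proximal sections without section 5, 178 and 152 without section 3, 69 and 74 with detected genes as a covariate, and 71 and 106 without sections 3 and 4, which was added after seeing the data. Leaving out section 8 gave 292 and 40. The median over all genes, 0.22 as reported, ran from -0.16 without sections 3 and 4 to 0.42 with section 2 added. It was -0.01 under quantile normalization, -0.04 with that covariate, 0.10 without section 3, 0.40 without section 5 and 0.41 with a pseudocount of 0.1. The cause was not tested. No paired analysis was possible because the section numbers of the 2 groups do not overlap.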

Other observations

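Prl3d1, a placental lactogen of trophoblast giant cells, was at 8.55 on the log2(FPKM + 1) scale in section 6 and at 4.23 and 0 in sections 7 and 8. In the distal sections it was at 2.46, 0 and 1.53. The VE libraries cut from sections 6 and 7 held 9.17 and 5.81, sections 10, 11 and 12 held 0.41, 0 and 0, section 2 held 6.13, and sections 14 to 19 held 2.41 to 9.06. Prl3d1 has near-identical neighbours, so the split of reads between them is uncertain. Krt8, a keratin of trophoblast and endoderm, was at 1.51 in section 6 and at 4.84 and 0 in the VE libraries.

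The VE library of section 6 had 1496 genes at an FPKM of 1 or more and that of section 7 had 2147, and Rn45s took 62.2% and 48.8% of their summed FPKM. Apoe, a lipid carrier abundant in VE, was at 7.99 and 9.22 in them and at 0.78 to 4.70 in sections 3 to 8.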
